A study of Mus musculus with 2 samples.

Results

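The heat shock proteins and their DNAJ cochaperones were taken as the protein-coding genes whose GENCODE symbol begins with Hspa, Hspb, Hspd, Hspe, Hsph, Hsp90, Dnaja, Dnajb or Dnajc, with pseudogene names left out. The rule found 73 genes, 45 of them DNAJ genes, among 21461 nuclear protein-coding genes. They were measured by polyA RNA sequencing in G1E-ER4, an immortalized mouse line of Gata1-null origin in which GATA-1 fused to an oestrogen receptor domain was restored, so that estradiol drives erythroid maturation. All cells had received 10 nM 17beta-estradiol for 24 hours. The 2 libraries, biological replicates 1 and 2, form 1 group of 1 cell line, and no control library was analysed here. The levels below therefore describe induced cells alone, without a test between conditions, and ± is the SD over n = 2. The labels do not say whether the replicates came from separate cultures.

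Molecular chaperones of the HSP70 class bind exposed stretches of unfolded proteins in cycles driven by ATP. J proteins, the products of DNAJ genes, bring clients to HSP70 and trigger its ATPase through a His-Pro-Asp motif, and nucleotide exchange factors such as the HSP110 proteins reset it. HSP90 acts later, on partly folded clients such as kinases and steroid hormone receptors, and its endoplasmic reticulum and mitochondrial counterparts serve those compartments. The mitochondrial chaperonin encloses clients in a chamber closed by its lid. In red cell precursors, HSP70 is known for protecting GATA-1 from caspase cleavage, and chaperones accompany the massive synthesis of globin.

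The sequence features that define these roles were read from the coding sequences of GENCODE M21 (GRCm38). Codons for His-Pro-Asp were found in 44 of the 45 DNAJ genes, and in 34 of the 35 that were detected. Dnajb13, a DNAJ gene of axonemes, was the exception. The stretches below, each 36 bases and so as long as a read, show the motif (in capitals) in leading members of the 3 DNAJ classes. They are given 5′ to 3′ on the coding strand.
Dnaja1 at chr4:40723800-40723835, plus strand: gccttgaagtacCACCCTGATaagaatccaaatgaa
Dnajb1 at chr8:83608413-83608448, plus strand: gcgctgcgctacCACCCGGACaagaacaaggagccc
Dnajb2 at chr1:75237468-75237503, plus strand: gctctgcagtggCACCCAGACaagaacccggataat
Dnajc5 at chr2:181547347-181547382, plus strand: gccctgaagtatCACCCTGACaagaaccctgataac
Dnajc8 at chr4:132544059-132544094, plus strand: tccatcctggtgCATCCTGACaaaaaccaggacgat
Dnajc7, spliced across chr11:100584347-100584570, minus strand: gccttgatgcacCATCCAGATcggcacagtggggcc

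The other end of the cycle is marked at the C terminus. Codons for Glu-Glu-Val-Asp, the tail by which cytosolic HSP70 and HSP90 bind cochaperones with TPR domains, closed the coding sequence of 7 genes. Codons for Lys-Asp-Glu-Leu, the signal for retention in the endoplasmic reticulum, closed 3, namely Hspa5, Hsp90b1 and Dnajc10. The last 36 coding bases are shown with these codons in capitals.
Hsp90ab1 at chr17:45568018-45568053, minus strand: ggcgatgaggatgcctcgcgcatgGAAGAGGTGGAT
Hsp90aa1 at chr12:110691543-110691578, minus strand: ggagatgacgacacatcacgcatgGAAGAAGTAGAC
Hspa8 at chr9:40805079-40805114, plus strand: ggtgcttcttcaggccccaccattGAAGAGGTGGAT
Hspa2 at chr12:76406397-76406432, plus strand: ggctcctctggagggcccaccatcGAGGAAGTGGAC
Hspa1a at chr17:34970003-34970038, minus strand: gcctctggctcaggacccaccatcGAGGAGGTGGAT
Hspa1b at chr17:34957082-34957117, minus strand: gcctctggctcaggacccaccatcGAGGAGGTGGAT
Hspa1l at chr17:34978874-34978909, plus strand: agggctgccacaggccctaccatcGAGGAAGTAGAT
Hspa5 at chr2:34776075-34776110, plus strand: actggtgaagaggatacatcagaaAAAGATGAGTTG
Hsp90b1, spliced across chr10:86691105-86691640, minus strand: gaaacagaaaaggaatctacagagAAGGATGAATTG
The tails of Hspa1a and Hspa1b were the same in all 36 bases, so a read from there fits both genes.

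Sequencing depth was 20412826 (replicate 1) and 18564086 (replicate 2) expected counts. An expected count is an estimate that divides a read among the transcripts it fits, and TPM divides it by transcript length and scales each library to the same sum. All 8 erythroid markers were detected, with Hbb-bs at 61175 and 69726 TPM and Gata1, the restored gene, at 2714 and 3180 TPM, although the tables do not separate the fusion from the native gene. Of 6 myeloid markers only Cd68 (2.76 and 3.51 TPM) was detected, of 3 mast cell markers only Kit, of 4 fibroblast and endothelial markers only Fn1, and of 4 lymphoid and 6 testis and muscle markers none.

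Detection, set at 1 TPM or more in both libraries, was reached by 53 of the 73 genes, beside 41.2% of all nuclear protein-coding genes. A mean of 10 TPM was reached by 37 and a mean of 100 TPM by 11. Their median was 10.6 TPM, against 0.08 TPM over all nuclear protein-coding genes. The 73 genes held 0.688% of all TPM in replicate 1 and 0.679% in replicate 2. Most of this came from Hsp90ab1, Hspa8 and Hsp90aa1, which held 56.9% and 61.2% of the members' TPM, and the 10 highest held 81.5% ± 0.936 (SD, n = 2).

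**Figure D1:**
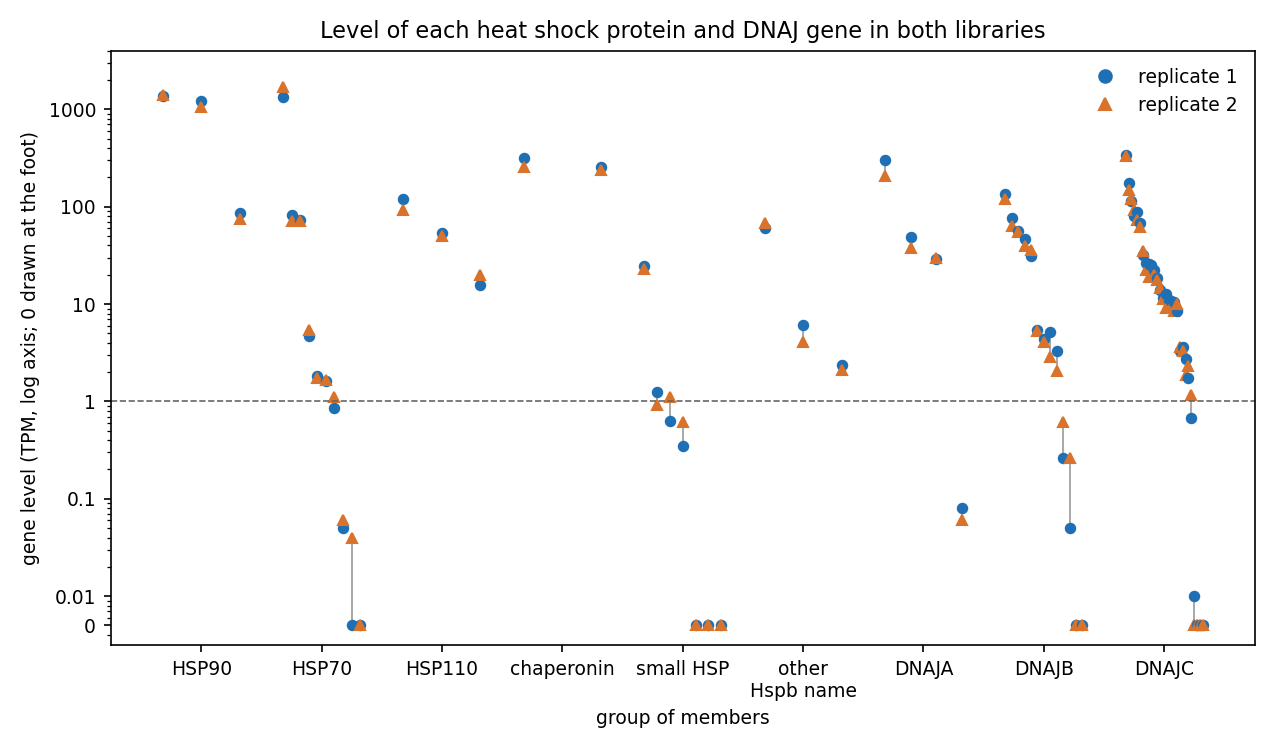
Each pair of points is 1 of the 73 genes, in replicate 1 (circle) and replicate 2 (triangle), by group on the x axis and in TPM on a log y axis, with 0 drawn at the foot and the detection level of 1 TPM dashed. HSP90, HSP110 and chaperonin genes all lie above the line, whereas HSP70, small HSP and DNAJ genes spread down to 0 or nearly 0.

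The HSP90 genes were the most abundant group by summed TPM, at 2655 and 2532 TPM, and all 3 were detected. Hsp90ab1, the constitutive cytosolic form, stood at 1362 and 1403 TPM. Hsp90aa1, the cytosolic form that stress induces, stood at 1206 and 1054 TPM. Both libraries placed Hsp90ab1 above Hsp90aa1, but only by a log2 ratio of 0.18 in replicate 1 and 0.41 in replicate 2. That ratio depends on how length is handled, with 1.52 in counts scaled to library size but not divided by length (CPM) and 1.08 when only transcripts with an annotated coding sequence are used. Hsp90b1, the form of the endoplasmic reticulum, was far lower at 85.8 and 74.7 TPM, or 3.09% ± 0.202 of the group's TPM. Trap1, the mitochondrial HSP90, falls outside the name rule and stood at 122 and 135 TPM.

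Among 10 HSP70 genes, 6 were detected, and Hspa8, the constitutive cytosolic form, held 89.1% and 91.8% of the group's TPM as deposited. It stood at 1350 TPM in replicate 1 and 1696 TPM in replicate 2. Its ranges overlap those of Hsp90ab1, so these libraries do not set an order between them. Hspa5, the HSP70 of the endoplasmic reticulum, stood at 73.4 and 71.8 TPM. Hspa9, the mitochondrial HSP70, stood at 82.7 and 70.7 TPM and overlapped Hspa5. By deposited TPM, Hspa8 exceeded Hspa5 by a log2 ratio of 4.38 ± 0.26 and Hspa9 by 4.31 ± 0.39 (SD, n = 2). The mean ratios turned to -1.70 and -2.20 when only transcripts with an annotated coding sequence were used, but the libraries differed in sign. On those transcripts Hspa8 held 246 TPM in replicate 1, above Hspa9 at 81.1 TPM and Hspa5 at 60.7 TPM. In replicate 2 Hspa8 held 1.08 TPM, below Hspa9 at 69.0 TPM and Hspa5 at 46.2 TPM.

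The stress-inducible HSP70 genes were at the floor. Hspa1a had no expected count (0) in either library, and Hspa1b had 0 and 1.57. A count of 0 still allows 3 counts, or 0.147 CPM in replicate 1 and 0.162 CPM in replicate 2, covering counting error only. The coding sequences of this pair share 86.5% of the 36-base windows of Hspa1a, and only 30.8% of the windows of Hspa1a and 33.5% of those of Hspa1b occur in no other gene. Reads divided between the pair would still add up, and together they received 1.57 counts. Their neighbour Hspa1l, a form known from testis, was counted at 1.63 and 1.67 TPM, but 71.6% of its windows lie on the opposite strand of Gm10501, an annotated antisense gene, and the sources used here do not say whether counting used strand.

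The remaining HSP70 genes were low. Hspa2, known from spermatogenesis, stood at 4.67 and 5.40 TPM. Hspa13, an HSP70 relative of microsomes, stood at 1.83 and 1.74 TPM. Hspa12b, a distant relative known from endothelium, straddled the detection level at 0.85 and 1.10 TPM, and Hspa12a stayed at 0.05 and 0.06 TPM. Hspa14 is not analysed here, because its gene identifier in the newer annotation was not among the identifiers of the tables.

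The number for Hspa8 rests on how reads were divided among copies of its sequence. Of its 36-base windows, 56.8% occur in no other gene. Gm26825, annotated as a lincRNA (chr5:5781530-5783636, plus strand), was assigned 43593 and 40055 expected counts, more than the 18443 and 15067 assigned to Hspa8 itself (chr9:40800984-40810087, plus strand). Of the windows of Gm26825, 85.4% match Hspa8, all in the antisense direction. The sources used here do not say whether counting used strand, so whether reads could be divided between Gm26825 and Hspa8 is not known. It lies opposite Gm15459, a processed pseudogene that carries 37.5% of the Hspa8 windows in the sense direction and received 1978 and 1551 counts. Gm8355, another processed pseudogene, shares 27.6% and received 2335 and 1843 counts. Of the counts on Hspa8 and these 3 genes together, Hspa8 held 27.8% in replicate 1 and 25.8% in replicate 2. Which locus those reads came from cannot be told apart in gene and transcript tables. With all 4 added up, the level was 2981 TPM in replicate 1 and 3303 TPM in replicate 2, above both cytosolic HSP90 genes in both libraries. Most of what was added came from the antisense Gm26825, and whether its counts belong with Hspa8 was not tested.

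The division among transcripts of Hspa8 was also uneven. Hspa8-203, which has 606 bases and no annotated coding sequence, held 64.8% and 71.1% of the gene's TPM. Hspa8-209, with 727 bases and likewise without one, held 16.8% and 28.7%. The full coding transcript Hspa8-202 was assigned 7788 counts in replicate 1 but 0 in replicate 2, and Hspa8-201, which also codes, 40.2 and 37.2. Most 36-base windows of the short forms, 94.5% in Hspa8-203 and 95.1% in Hspa8-209, also lie in coding transcripts of the gene. The mean transcript length behind the gene's TPM was 887 bases in replicate 1 and 643 in replicate 2. The TPM of Hspa8 was higher in replicate 2, while its scaled count was 1.11-fold higher in replicate 1.

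Other abundant members were split in a similar way, as the plot of transcript kinds shows. A leading transcript was assigned for 54 members, those with 20 expected counts or more in each library. It lacked an annotated coding sequence in both libraries for 7, namely Hspa8, Hspb6, Dnajb2, Dnajb13, Dnajc7, Dnajc13 and Dnajc24, beside 7.6% of all nuclear protein-coding genes with as many counts. It differed between the libraries for 5, namely Hsp90aa1, Hspa4, Hspb11, Dnajc21 and Dnajc28, beside 11.7% of those genes. Transcripts annotated for nonsense-mediated decay count here as having a coding sequence. Such a transcript led Dnajb12, Dnajc1, Dnajc15, Dnajc25 and Hspbap1 in both libraries. It held 100% of the TPM of Dnajc15 and of Hspbap1, but no other transcript of these genes was quantified, which fixed that share. Dnajc15-202 and Hspbap1-202, which hold their longest coding sequences in GENCODE M21, were not among the quantified transcripts. For Hsp90aa1, the retained-intron form Hsp90aa1-205 led replicate 1 with 34.3%, and the coding fragment Hsp90aa1-208 led replicate 2 with 50.9%. The full-length Hsp90aa1-202 held 18.02% and 14.35% of the TPM, although it received the most counts of any Hsp90aa1 transcript, 11325 and 7178. Hsp90ab1 shows the opposite, since the coding transcript Hsp90ab1-201 held nearly all of its TPM.

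**Figure D2:**
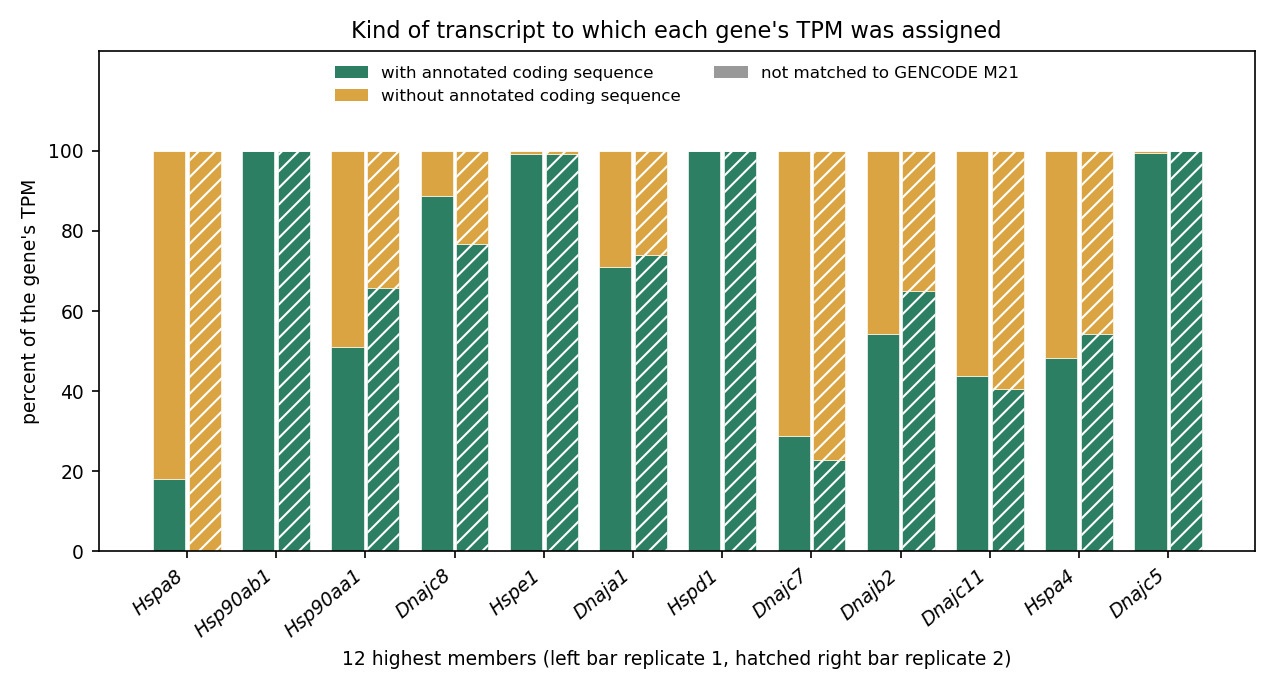
Bars give the percent of each gene's TPM assigned to transcripts with (green) and without (gold) an annotated coding sequence, for the 12 members with the highest mean TPM, with replicate 1 on the left and replicate 2 hatched on the right. Hspa8 has 81.8% and 99.9% on transcripts without a coding sequence, while Hsp90ab1 and Hspd1 lie almost wholly on coding ones.

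All 3 HSP110 genes, whose products release nucleotide from HSP70, were detected. Hspa4 led at 121 and 93.5 TPM, or 60.3% ± 4.30 of the group. Hsph1, which heat shock induces, stood at 54.0 and 49.7 TPM. Hspa4l, known from testis, stood at 15.7 and 20 TPM. The levels of the 3 did not overlap, and Hspa4 exceeded Hsph1 by a log2 ratio of 1.04 ± 0.17. The ratio was 0.61 in CPM and 0.55 on coding transcripts, and transcripts without coding sequence held 51.6% and 45.7% of the TPM of Hspa4. The coding-only ratio also left out transcripts not matched to GENCODE M21, whose coding status was not determined. These held 14.88 and 14.55 TPM of Hsph1, and 12.03 and 16.26 TPM of Hspa4l.

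Both chaperonin genes were abundant and close to each other. Hspd1, which encodes the HSP60 chamber, stood at 258 and 238 TPM. Hspe1, which encodes its HSP10 lid, stood at 320 and 254 TPM. The log2 ratio of Hspe1 to Hspd1 was 0.31 and 0.09 per library, a small difference whose sign turns to -1.18 in counts not divided by length. The genes lie head to head on chromosome 1, with starts 111 bases apart in GENCODE M21, and their 5′ ends overlap there. Only 50.5% of the Hspd1 windows occur in no other gene, but Hspd1-ps3, the pseudogene that shares most, received just 41.5 and 20.5 counts.

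Small heat shock proteins, which hold unfolding proteins without ATP, were nearly silent. Hspb6, best known from muscle, was the only 1 of 7 detected, at 24.6 and 23.2 TPM. Transcripts without coding sequence held 65.1% and 58.6% of that. Hspb1, encoding HSP25, stood at 0.35 and 0.62 TPM, with 46.0% of its windows in no other gene. Hspb3 (1.25 and 0.92 TPM) and Hspb9 (0.63 and 1.11 TPM) passed 1 TPM in a single library each, and Hspb2, Hspb7 and Hspb8 had 0 TPM in both. The crystallins Cryaa and Cryab, small heat shock proteins outside the name rule, also had 0 TPM. A further 3 genes share the Hspb prefix without being small heat shock proteins. Hspbp1, a nucleotide exchange factor of HSP70, stood at 59.97 and 67.91 TPM, Hspb11, an intraflagellar transport subunit, at 6.09 and 4.06 TPM, and Hspbap1, named for binding a small heat shock protein, at 2.34 and 2.09 TPM.

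DNAJ genes contributed 1852 and 1652 TPM in all, with 35 of 45 detected. DNAJA genes encode the J proteins closest to bacterial DnaJ. Dnaja1, a farnesylated cytosolic form, held 77.4% ± 2.82 of that class, at 301 and 206 TPM. Its relative Dnaja2 stood at 48.7 and 37.6 TPM, and the log2 ratio of Dnaja1 to Dnaja2 was 2.54 ± 0.12, or 1.00 in counts not divided by length. Dnaja3, the mitochondrial form, stood at 29.4 and 29.7 TPM. Dnaja4 was not detected, at 0.08 and 0.06 TPM.

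Of 13 DNAJB genes, 9 were detected, and their levels were more even. Dnajb2, which carries ubiquitin-interacting motifs, led at 136 and 121 TPM, or 36.9% ± 0.504 of the class. Dnajb6, a suppressor of aggregation, stood at 75.8 and 63.8 TPM. Dnajb1, the stress-inducible partner of cytosolic HSP70, stood at 56.6 and 54.9 TPM. It was thus well above detection while its partners Hspa1a and Hspa1b were not. Dnajb13 (4.37 and 4.05 TPM) and Dnajb4 (5.16 and 2.88 TPM) were low, while Dnajb3, Dnajb5, Dnajb7 and Dnajb8 ranged from 0 to 0.61 TPM.

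Of 28 DNAJC genes, which share little beyond the J domain, 23 were detected. Dnajc8, a splicing-associated nuclear protein, was the highest DNAJ gene at 340 and 334 TPM. Dnajc7, which has TPR repeats that bind HSP70 and HSP90, stood at 175 and 147 TPM, although 71.1% and 77.3% of that lay on transcripts without coding sequence. Dnajc5, encoding cysteine string protein, stood at 80.4 and 93.0 TPM. Dnajc9, a histone chaperone, stood at 88.4 and 73.0 TPM, and overlapped Dnajc5. Dnajc13, an endosomal protein, stood at 32.1 and 35.4 TPM and Dnajc21, of ribosome assembly, at 26.5 and 22.4 TPM. Dnajc6, Dnajc12, Dnajc22, Dnajc5b and Dnajc5g were not detected, and of them only Dnajc12 (0.67 and 1.16 TPM) exceeded 0.01 TPM in a library.

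The listed J proteins of both organelles were all detected, beside 41.2% of all nuclear protein-coding genes. All 7 listed DNAJ genes of the endoplasmic reticulum were detected, led by Dnajb11, a cofactor of Hspa5, at 46.4 and 39.6 TPM and the membrane-anchored Dnajb12 at 31.3 and 36.04 TPM. Dnajc10, a disulfide reductase, stood at 11.0 and 10.1 TPM, Dnajc3, also known as p58IPK, at 10.6 and 9.24 TPM, and Dnajc1 at 8.57 and 10.0 TPM. Dnajb14 (5.41 and 5.32 TPM) and Dnajb9 (3.29 and 2.06 TPM) were the lowest of the 7. The 8 listed mitochondrial genes were also all detected. Among their DNAJ genes, Dnajc11, of the cristae-organising machinery, stood at 115 and 121 TPM, and Dnajc15, of the import motor, at 68.0 and 61.4 TPM. Transcripts without coding sequence held 56.3% and 59.4% of the TPM of Dnajc11. All of the Dnajc15 TPM lay on a transcript annotated for nonsense-mediated decay, the only Dnajc15 transcript that was quantified. Dnajc19, the import-motor relative of Dnajc15, stood at 25.92 and 18.97 TPM, and Dnajc30 at 11.6 and 11.3 TPM.

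**Figure D3:**
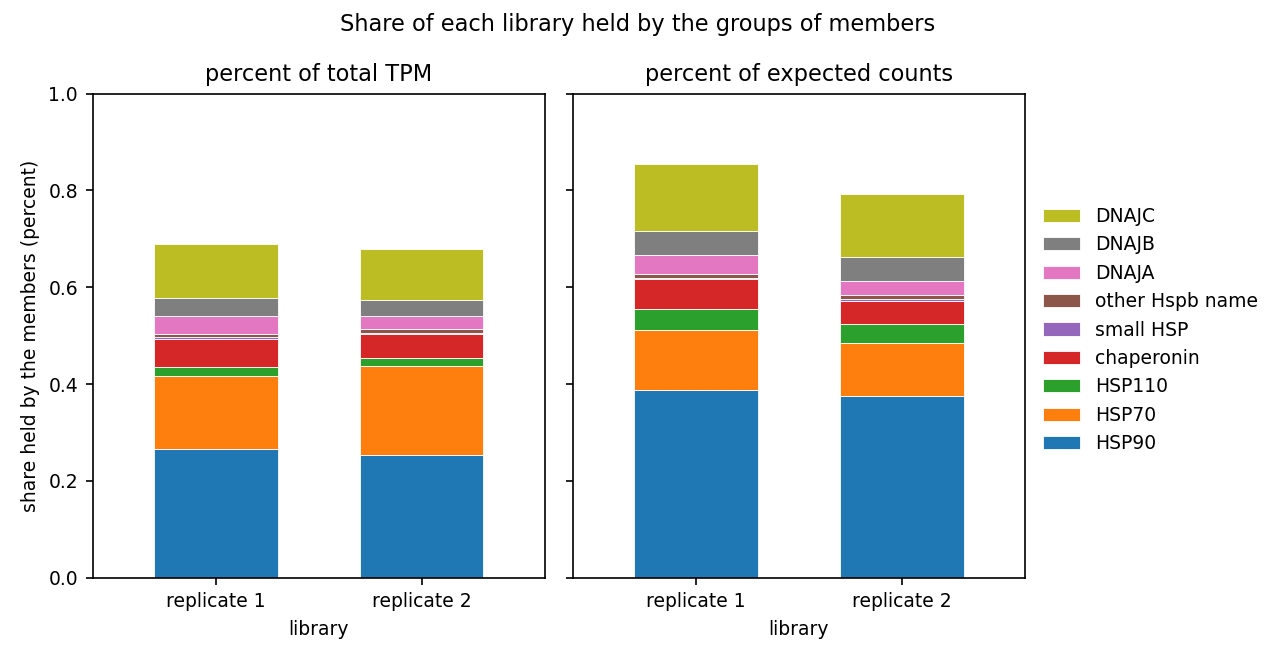
Stacked bars give the share of each library held by the groups, as percent of total TPM on the left and percent of expected counts on the right, with replicates 1 and 2 side by side. HSP90 is the widest band in every bar; HSP70, which includes Hspa8 but not the copies of its sequence, holds 0.152% and 0.185% of TPM but 0.123% and 0.109% of counts.

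The libraries did not place the Hspa genes above or below the DNAJ genes. Summed over the 12 genes named Hspa, the level was 1651 and 1962 TPM, and the log2 ratio to the DNAJ sum was -0.17 in replicate 1 and 0.25 in replicate 2, of opposite sign. With the 3 Hspa8 copies added, the mean ratio was 0.97, and with coding transcripts only it was -2.20. Relative to HSP90, the Hspa sum was lower in both libraries, with a log2 ratio of -0.53 ± 0.22. That ratio turned to 0.40 once the copies, mostly the antisense Gm26825, were added.

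Detection of the listed factors that serve these chaperones is given beside the 41.2% of all nuclear protein-coding genes detected. All 14 listed nucleotide exchange factors were detected, led by Bag6 (329 and 342 TPM), Bag1 (193 and 178 TPM) and Hspa4. All 19 listed cochaperones of HSP90 and HSP70 were detected, led by Fkbp8 (331 and 376 TPM), Stip1 (290 and 301 TPM), which bridges HSP70 to HSP90, and St13 (315 and 238 TPM). Of 7 listed genes of heat shock factors and proteins that bind them, 2 were detected. Hsf1, the master regulator of the heat shock response, stood at 37.0 and 39.4 TPM, and Hsbp1, a small protein that binds it, at 63.7 and 49.6 TPM, whereas Hsf2 remained at 0.92 and 0.82 TPM. Ahsp, the chaperone of alpha-globin, is not analysed here.

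Among 16 genes listed as HSF1 targets of the textbook heat shock response, 13 were detected, and the 3 that were not are Hspa1a, Hspa1b and Hspb1. The 3 highest by the mean of both libraries were Hspa8, Hsp90aa1 and Stip1. All 15 listed ATF6 and XBP1 targets of the endoplasmic reticulum stress response were detected, led by Calr (217 and 212 TPM), Manf (102 and 80.1 TPM) and Hsp90b1. Of the testis forms 4 of 10 were detected, a share near the 41.2% of all nuclear protein-coding genes, and of the muscle and brain forms 1 of 9, namely Hspa1l, Hspa2, Hspa4l and Dnajb13 in the first list and Hspb6 in the second.

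**Figure D4:**
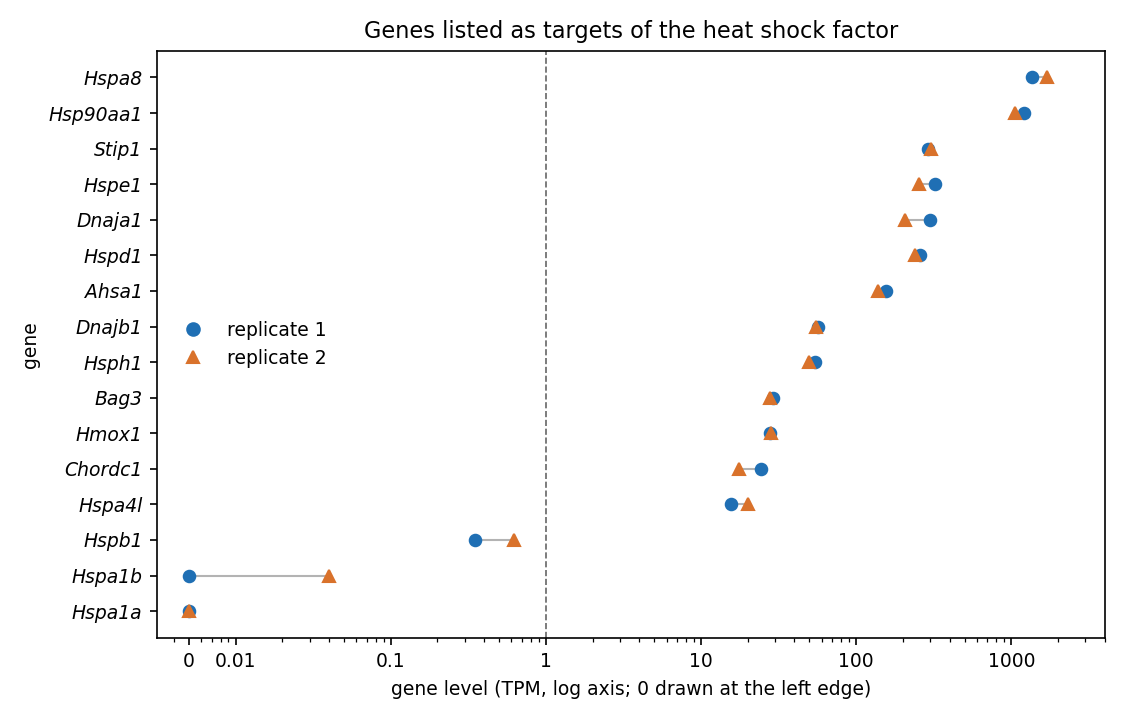
Points give the TPM of the 16 listed HSF1 targets in replicate 1 (circle) and replicate 2 (triangle) on a log x axis, with 0 at the left edge and 1 TPM dashed. Hspa1a, Hspa1b and Hspb1 lie left of the dashed line in both libraries and the other 13 lie right of it, all above 15 TPM.

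The heat shock element to which HSF1 binds was searched for in the 250 bases upstream of the RefSeq starts (GRCm38.p6), as the core GAANNTTC or TTCNNGAA, which together cover both strands. Of 59 members with an entry, 14 held a core in at least 1 promoter (23.7%), beside 14.6% of all genes with an entry and 12.8% of all promoters. The 14 members without an entry were not searched and include Hspa8, Hsp90aa1 and Hsp90ab1. The searched members had 76 promoter entries. For 62 of these, the 30 bases after the start lay near the beginning of an annotated transcript of the gene. The core stood in 9 of 43 detected members and in 5 of 16 undetected ones, the latter being Dnaja4, Hspa1a, Hspa1b, Hspb1 and Hspb3. The longer form of 3 overlapping units, GAANNTTCNNGAA or TTCNNGAANNTTC, stood in Hspd1, Hspe1 and Dnajb6, and in 0.514% of all genes with an entry. These 30-base windows show the elements in capitals for members on both sides of detection, written 5′ to 3′ towards the gene.
Hspe1 at chr1:55088053-55088082, plus strand: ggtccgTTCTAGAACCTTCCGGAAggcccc
Hsph1 at chr5:149636351-149636380, minus strand: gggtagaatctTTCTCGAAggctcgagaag
Dnaja1 at chr4:40722333-40722362, plus strand: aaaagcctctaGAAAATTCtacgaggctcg
Hspa1a at chr17:34972242-34972271, minus strand: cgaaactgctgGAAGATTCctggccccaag
Hspa1b at chr17:34959324-34959353, minus strand: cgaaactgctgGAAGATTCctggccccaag
Hspb1 at chr5:135887801-135887830, plus strand: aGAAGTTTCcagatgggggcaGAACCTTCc
The Hspe1 element, which holds 3 overlapping cores, begins 89 bases upstream of the Hspe1 start and also counts for its head-to-head neighbour Hspd1. The elements of Hspa1a and Hspa1b, genes with at most 1.57 counts, both begin 104 bases upstream and have identical windows. Upstream refers to a RefSeq start, and some windows also overlap annotated exons. The Dnaja1 window overlaps exons of Dnaja1 and Gm6297, the Hsph1 window an exon of Hsph1, and the Hspe1 window an exon of Hspd1. The windows of Hspa1a, Hspa1b and Hspb1, which were not detected, overlap no exon. A match of letters is a description and does not show binding.

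The libraries were similar at the level of single members. Of the 53 members with at least 50 scaled counts on average, 2 differed by over 1.5-fold, both higher in replicate 1, beside 2.08% of all nuclear protein-coding genes that were higher in replicate 1 by as much and 0.291% in replicate 2. Dnajb4, a cytosolic J protein, was 1.66-fold higher in replicate 1 (95% exact interval 1.30 to 2.14, counting error only). Dnajb9, a cofactor of Hspa5 also called ERdj4, was 1.602-fold higher (1.14 to 2.27). Dnajc25, Dnaja1 and Dnajc19 followed at 1.46, 1.42 and 1.35-fold, and for Dnaja1 the interval was narrow, 1.36 to 1.49, with 4608 and 2941 counts behind it.

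In the other direction the differences were smaller. The ratio of replicate 1 to replicate 2 was 0.774 for Hspa12b, 0.827 for Dnajc27, 0.862 for Hspa2, 0.881 for Hspbp1 and 0.888 for Dnajb12. The intervals of Hspa12b, Dnajc27 and Hspa2 include 1. In all, 39 of the 53 members (73.6%) were higher in replicate 1, with a median of 1.12-fold, whereas 51.7% of all nuclear protein-coding genes were, with a median of 1.01-fold. Of the listed HSF1 targets, 11 of 13 were higher in replicate 1 and of the endoplasmic reticulum stress targets 12 of 15, with members shared between these sets. The erythroid markers summed to 74032 TPM in replicate 1 and 84745 TPM in replicate 2, and the scaled counts of Hbb-bs and Gata1 stood at 0.886 and 0.849 of their replicate 2 value in replicate 1. The part of this difference between the libraries in the members' values was not tested.

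**Figure D5:**
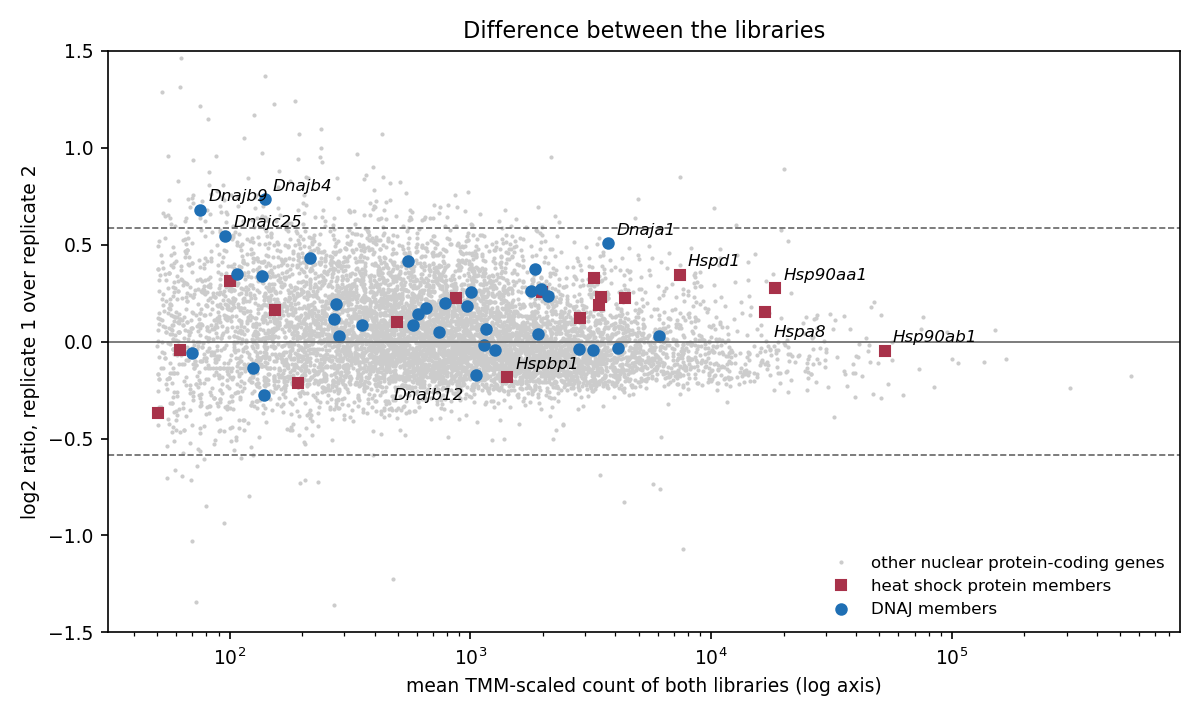
The log2 ratio of replicate 1 to replicate 2 (y axis) is plotted against the mean scaled count (log x axis) for heat shock protein members (squares), DNAJ members (circles) and all other nuclear protein-coding genes with at least 50 scaled counts (grey, 10 of them beyond the axis), with 1.5-fold dashed. Dnajb4 and Dnajb9 are the 2 members above the upper line and none lies below the lower one.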

How the data were processed

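PolyA RNA of G1E-ER4 cells was sequenced in 2 libraries. Per the deposited manifests, quantification used mm10 and GENCODE M4. Aligner, quantifier and strand setting: not given in the sources used here. The tables, per the file headers, give expected counts, TPM as the authors deposited it, a posterior mean TPM, and, in the authors' transcript tables, each transcript's percent of its gene. Length minus effective length gives 36-base reads.

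Gene symbols and positions were looked up in GENCODE M21 by identifier. Unique shares are distinct 36-base windows of a gene's M21 transcripts found in no transcript of another gene on either strand. Fold changes between libraries used expected counts rounded to whole numbers and scaled by TMM (edgeR 4.0.16, R 4.3.3), with Clopper-Pearson intervals. The scaling and the 1.5-fold call, without the intervals, were tested on simulated counts that held counting error only. With 1 group no p-value was computed. Motif, promoter and coding features were found by text search. A count of 0 allows 3 counts.

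Named genes were all members outside the DNAJ classes, the 8 highest per DNAJ class, organelle and undetected DNAJ genes, the 5 most different between libraries in each direction, up to 8 members with unusual leading transcripts and the 3 highest of each list. Genes and pseudogenes sharing sequence with members, Trap1, Cryaa, Cryab, Hsf2 and the markers printed were named after their values were seen. The members and lists were chosen with earlier results of these data known. Alternatives covered the unit, detection level, scaling (DESeq2 1.42.0 size factors) and single libraries.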

Additional observations from a re-analysis of the deposited data

How the results depend on the processing

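In CPM, counts not divided by length, the log2 ratios were 1.52 for Hsp90ab1 over Hsp90aa1, 3.08 for Hspa8 over Hspa5, 2.26 for Hspa8 over Hspa9, -1.18 for Hspe1 over Hspd1, 0.61 for Hspa4 over Hsph1, 1.00 for Dnaja1 over Dnaja2, -0.61 for Hspa over DNAJ and -1.42 for Hspa over HSP90. From transcripts with coding sequence only, a choice made after seeing the data, they were 1.08, -1.70, -2.20, 0.19, 0.55, 2.08, -2.20 and -2.87 in that order. That choice also left out transcripts not matched to GENCODE M21 and kept those annotated for nonsense-mediated decay. Adding Gm26825, Gm15459 and Gm8355 to Hspa8, also chosen afterwards, gave 5.43 over Hspa5, 5.36 over Hspa9, 0.97 for Hspa over DNAJ, 0.40 for Hspa over HSP90, and 0.846% for the members' share of TPM. In deposited TPM, leaving out a replicate moved Hspa over DNAJ between -0.17 and 0.25, and no other ratio changed sign. On coding transcripts only, Hspa8 lay above Hspa5 and Hspa9 in replicate 1 and below both in replicate 2. The share of TPM was 0.823% in counts, 0.647% in posterior mean TPM and 0.28% without Hspa8, Hsp90aa1 and Hsp90ab1 (chosen afterwards). The median was 24.5 TPM over detected members only. Without a minimum count, 8 members differed over 1.5-fold. Detected members numbered 41 to 57 across the alternatives, 52 of them by coding transcripts. Members led by a transcript without coding sequence numbered 5 by counts, 7 without replicate 1 and 10 without replicate 2. The ratio of Hspa8 to Hspa1a plus Hspa1b was not computed, because these genes held 0 and 1.57 counts. No paired analysis was possible because there was 1 group. The causes of these changes, other than what each setting counts, were not tested.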

Other observations

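Folding factors of the endoplasmic reticulum outside the name rule were detected in 15 of 15 matched genes, led by P4hb, a protein disulfide isomerase (264 and 243 TPM), Calr, a lectin chaperone, and its membrane-bound relative Canx (229 and 185 TPM). Mitochondrial protein quality control genes were detected in 14 of 14, led by the proteases Lonp1 (226 and 234 TPM) and Htra2 (165 and 171 TPM), with Trap1 next. Over all nuclear protein-coding genes, 41.2% were detected. Of 7 J proteins and small heat shock proteins outside the name rule, 4 were detected, led by Gak, the cofactor that uncoats clathrin vesicles, at 80.2 and 84.6 TPM, followed by Hscb, the J protein of iron-sulfur cluster assembly, at 21.8 and 20.4 TPM.

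Pseudogenes with a member's name were low. Of 10 such rows, Dnajc19-ps was the highest at 5.57 and 2.81 TPM, and Hspe1-ps3 followed at 2.74 and 0.92 TPM. Gm12346, a transcribed pseudogene that shares 45.2% of the windows of Hsp90aa1, received 813 and 343 counts, beside 21191 and 15899 for Hsp90aa1. Its ratio between the libraries was not tested.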
